A study of Mus musculus with 50 samples.

Results

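The 10 genes described here are read out from, or feed back on, signalling by fibroblast growth factor (FGF) through the kinase ERK, and were followed in mouse embryonic stem cells: Fgf4, Etv4, Etv5, Spry2, Spry4, Spred1, Dusp4, Dusp6, Phlda1 and Ier3. They were taken by symbol from a table of 19455 genes, and all 10 were listed, none with values identical to those of another gene. The cells were of the KH2 line, on a C57BL/6 x 129/Sv background, grown in serum with LIF, which keeps mouse stem cells undifferentiated. WT cells were set beside knockouts of Ythdf1, Ythdf2 or Ythdf3 (Ythdf1_KO, Ythdf2_KO and Ythdf3_KO) and of all 3 genes at once (Triple_KO). Their products read N6-methyladenosine (m6A), a methylated base of mRNA, through a YTH domain, and the series title asks whether they compensate for each other. Every genotype was plated on gelatin for 48 h and then given 5 µM actinomycin D, which blocks transcription, for 0, 4 or 8 h. Each had replicates A and B, with 2 duplicate libraries per replicate at 0 and 8 h and 1 at 4 h, which made 50 libraries. Whether A and B were separate cultures, which clones were used and which part of each gene was edited is not given in the sources used here, so that the p-values measure the spread between these samples, which may be technical.

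FGF4, the product of Fgf4, is the main FGF that mouse embryonic stem cells make for themselves. It acts through FGF receptors and a kinase cascade on ERK, and ERK activity moves the cells towards differentiation. The pathway restrains itself: ERK induces the ETS factors Etv4 and Etv5, the Sprouty and Spred inhibitors that act upstream of ERK, and the phosphatases Dusp4 and Dusp6 that remove the activating phosphates from ERK. Transcripts of such feedback genes are typically short-lived, a property often tied to AU-rich elements, repeats of ATTTA in the 3′ UTR, and m6A is found mostly near stop codons and in 3′ UTRs.

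The transcripts' own sequences are shown first because both features were searched in them, on the sense strand of the GENCODE M21 transcript of each member (mm10). The motif ATTTA occurred in the 3′ UTR of 9 of the 10 members. Among the 8684 tested genes with an annotated 3′ UTR (95.7% of 9078 tested), 64.7% held it, and among the 5094 whose 3′ UTR was within the members' range of 612 to 4330 nt, 82.1% did. Spred1 held 12 copies, Spry4 7, Fgf4 6, Etv5 and Ier3 5 each, Phlda1 3, Spry2 and Dusp4 2 each and Dusp6 1, while Etv4 held none in 624 nt. The 9-base form TTATTTATT, which contains ATTTA, was found in Phlda1 alone among the members and in 6.33% of the tested genes. Of the tested members, Fgf4 and Ier3 fell furthest over 8 h in WT by log2(FPM + 1), the scale tested below. Fgf4 (-2.72) was close there to Spry2 (-2.69). By the share of the 0 h mean left, Spry2 (13.9%) and Dusp6 (14.4%) were below Fgf4 (15.3%), while Etv5, with 5 copies, kept 36.3%. A link between the number of copies and the fall was not tested. The windows show the motif in capitals. They are those of Fgf4, Ier3 and the 4 members whose level differed from WT in a knockout at 0 h.
Phlda1, chr10:111508348-111508376, plus strand: tggattatgaTTATTTATTagttttttta
Fgf4, chr7:144863035-144863063, plus strand: ctaagatATTTAaattATTTAaatatgta
Ier3, chr17:35822485-35822513, plus strand: taattaatATTTAtgtATTTAtgtatatc
Spry2, chr14:105892092-105892120, minus strand: agtgtaaagaatATTTAtttgaagtttta
Dusp6, chr10:99267420-99267448, plus strand: ttttgagctggaATTTAttataagaatgt
Etv5, chr16:22382675-22382703, minus strand: tgtagttttggtATTTAaagcaaaaacaa

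GGACT is a common form of the base sequence that the m6A methyltransferase recognises, with the methylated base being its A. All 10 members had at least 1 GGACT in the 3′ UTR (58.4% of the tested genes did), with 4 copies in Etv5, 2 each in Fgf4, Phlda1, Spry4 and Spred1 and 1 in each of the others. The share among genes with 3′ UTRs as long as the members' was not computed for GGACT, so that the 2 figures are not matched for length. In the coding part, 7 of 10 members held it, against 74.8% of the tested genes. A match says nothing of whether the base is methylated in these cells, which was not measured here. Windows are given for the ETS factors and for the 2 inhibitors whose levels differed in both Ythdf2_KO and Triple_KO, with GGACT in capitals.
Etv4, chr11:101770022-101770046, minus strand: ggacatacagGGACTtcccttgttt
Etv5, chr16:22383117-22383141, minus strand: cgttgatcatGGACTactaaaatgc
Spry2, chr14:105892177-105892201, minus strand: atttccctttGGACTtgatgtatat
Dusp6, chr10:99266555-99266579, plus strand: acccaagcagGGACTggacatccat

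Levels are in FPM, reads scaled to a fixed library total, counted near the 3′ end and not corrected for length, so that levels are compared between genotypes and not between genes. Library totals ran from 796921 to 2341410 reads, and 1 read was worth 0.427 to 1.25 FPM. The knocked-out genes still gave 3′ end reads: Ythdf1 was at 51.1 to 64.9 FPM in Ythdf1_KO against 50.7 to 67.7 in WT, Ythdf2 at 28.9 to 38.9 in Ythdf2_KO against 40.5 to 58.6, and Ythdf3 at 19.9 to 27.9 in Ythdf3_KO against 13.6 to 33.0. In Triple_KO, Ythdf2 was at 71.8 to 97.3 FPM. Since the edited parts are not given, these reads neither check the labels nor go against them. The pluripotency markers Pou5f1, Sox2, Zfp42 and Esrrb had means of 113 FPM or above in all genotypes at 0 h, and Nanog had means of 1.51 to 2.58 FPM. The 7 primed epiblast markers, 7 of 7 listed, summed to 51.8 to 60.1 FPM in WT and 57.8 to 73.6 in Triple_KO at 0 h. Fgf5 was at 0 in WT. In WT and Triple_KO, Dnmt3b was at 40.9 and 43.9 FPM, Zic2 at 7.98 and 10.5 and Otx2 at 2.53 and 8.57. The list did not share a direction: Sox3 was lower in Triple_KO, at 3.35 FPM in WT and 2.21 there. Lef1, at a low level in both, was lower in Triple_KO too. In bulk RNA, fewer cells of a type and less RNA per cell cannot be told apart.

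At 0 h Spry2, Dusp6 and Phlda1 were lower than WT in Ythdf2_KO, Phlda1 alone in Ythdf3_KO, and Etv5, Spry2 and Dusp6 in Triple_KO, while no member passed the test in Ythdf1_KO. The test was limma on log2(FPM + 1), with n = 2 replicates per genotype and p-values adjusted over all 8697 genes tested. In this fit 7 of the 10 members, all but Spry4, Spred1 and Dusp4, were kept by the filter of 5 FPM in 2 replicate means. No member passed as higher than WT in any genotype. In the knockouts of Ythdf1, Ythdf2, Ythdf3 and all 3 genes, 0.897%, 4.22%, 1.99% and 7.65% of all tested genes were lower, beside 0, 3, 1 and 3 of the 7 members. The share that were higher was 1.72%, 3.98%, 2.47% and 14.3%, beside 0 members in each. With the spread estimated from all 30 replicate means of the 3 times, Etv5 in Triple_KO alone still passed (limma).

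**Figure D1:**
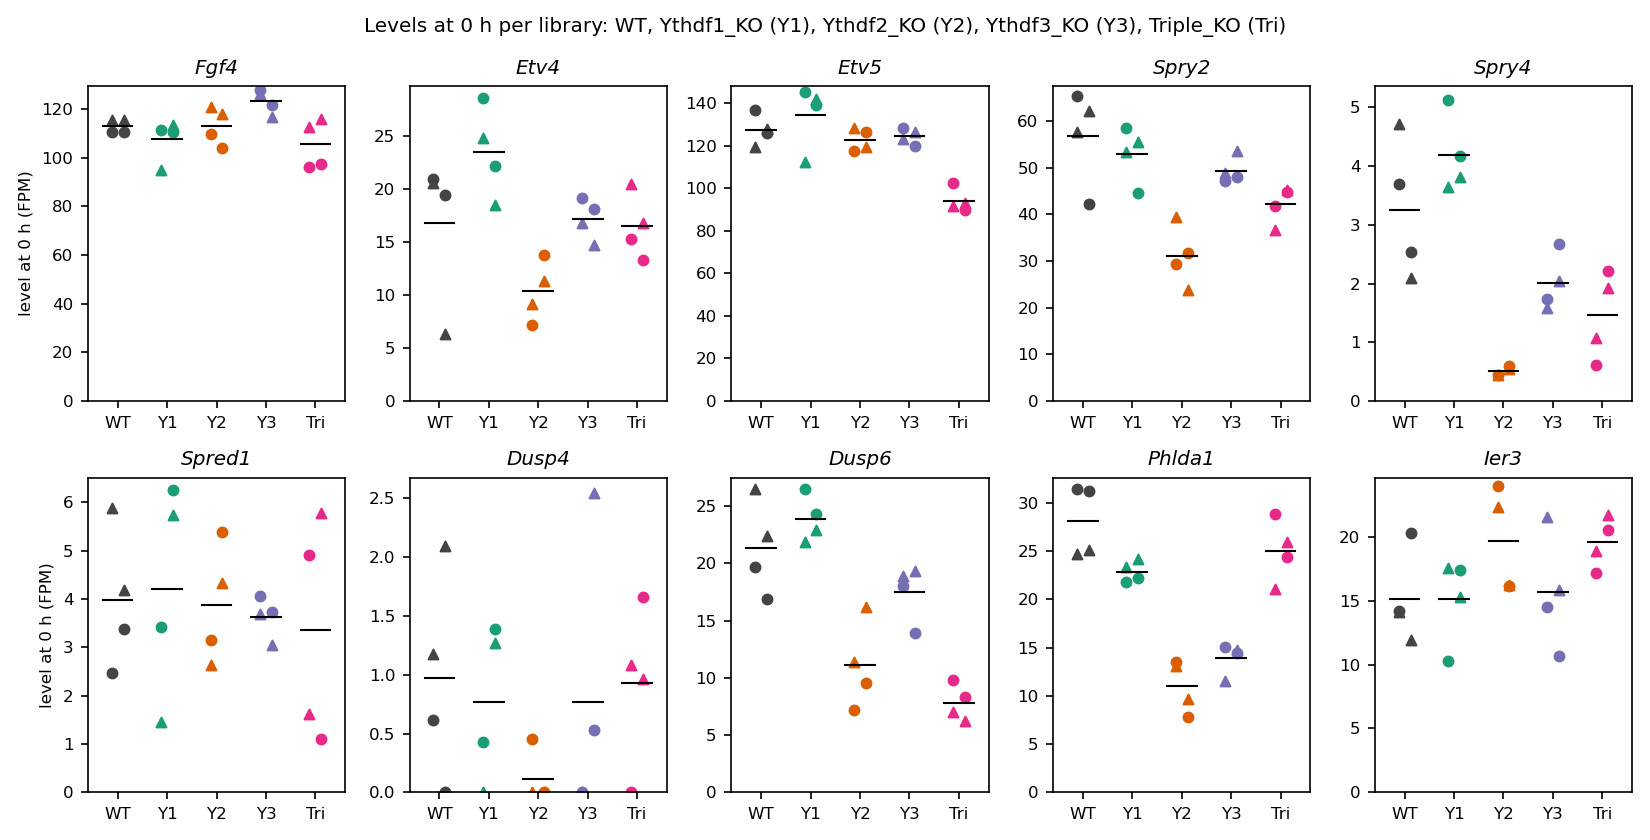
Level of each member at 0 h in FPM (vertical axis, linear, from 0), for WT, Ythdf1_KO (Y1), Ythdf2_KO (Y2), Ythdf3_KO (Y3) and Triple_KO (Tri). Each point is 1 library (circles replicate A, triangles replicate B) and the black line is the mean of 4 libraries; Dusp6 is lowest in Triple_KO and Phlda1 is low in Ythdf2_KO and Ythdf3_KO but not in Triple_KO.

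The ligand itself was little different from WT in the knockouts. Fgf4 was at 110 to 115 FPM in the 4 WT libraries and 96.3 to 116 in Triple_KO, and in the knockouts of Ythdf1, Ythdf2 and Ythdf3 it was at 94.9 to 113, 104 to 121 and 117 to 128. All Ythdf3_KO libraries lay above all WT libraries, but by little, and the other knockouts overlapped WT. The log2 differences from WT ran from -0.10 to 0.12, and in Triple_KO the 95% interval was -0.27 to 0.07 (limma, adjusted p = 0.463).

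Of the ETS factors that ERK induces, Etv5 was lower in Triple_KO and did not pass in the single knockouts. Its WT libraries were at 137, 126, 120 and 128 FPM and its Triple_KO libraries at 102, 89.7, 91.8 and 93.0, so that the groups did not overlap. The difference was -0.43 ± 0.09 on the log2 scale (SE, limma, adjusted p = 1.43e-05). Etv5 was at 135 ± 15.0 FPM in Ythdf1_KO, 123 ± 5.23 in Ythdf2_KO and 124 ± 3.82 in Ythdf3_KO (SD over 4 libraries), all overlapping WT.

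For Etv4 the call in Ythdf2_KO differed between limma and edgeR. In WT it was at 20.97, 19.4, 20.6 and 6.29 FPM, the last value resting on 9 reads in a duplicate of replicate B. The Ythdf2_KO libraries, at 7.22, 13.8, 9.19 and 11.4 FPM, lay below the first 3 of these and above the fourth. With all libraries Etv4 differed by -0.55 ± 0.22 in Ythdf2_KO (limma, adjusted p = 0.109). Without that 1 WT library the difference was -0.94 with adjusted p = 0.0015 (limma), and edgeR on the recovered reads gave -0.75 with adjusted p = 0.0275. In Ythdf1_KO Etv4 was at 18.5 to 28.6 FPM (0.57 ± 0.22, limma adjusted p = 0.155). Ythdf3_KO at 14.8 to 19.2 and Triple_KO at 13.3 to 20.5 FPM overlapped WT, Ythdf3_KO only through the WT library at 6.29 FPM. Without that library the differences changed sign, from 0.16 to -0.24 in Ythdf3_KO and from 0.09 to -0.31 in Triple_KO, and did not pass.

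Spry2, which encodes a Sprouty inhibitor of ERK signalling, was lower in both genotypes. The WT libraries were at 65.4, 42.3, 57.7 and 62.2 FPM, those of Ythdf2_KO at 29.3, 31.7, 39.4 and 23.8, and those of Triple_KO at 41.7, 44.8, 36.7 and 45.3. Every Ythdf2_KO library was below every WT library, whereas Triple_KO overlapped the lowest WT library. The differences were -0.86 ± 0.13 in Ythdf2_KO (limma, adjusted p = 6.62e-08) and -0.41 ± 0.13 in Triple_KO (adjusted p = 0.0149). The second of these did not pass without WT replicate B (-0.32, adjusted p = 0.17), without Triple_KO replicate A (-0.45, adjusted p = 0.0508) or without Triple_KO replicate B (-0.37, adjusted p = 0.126). Spry2 was at 44.5 to 58.5 FPM in Ythdf1_KO and 47.0 to 53.5 in Ythdf3_KO, inside the WT range.

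Dusp6, the gene for a cytoplasmic phosphatase selective for ERK, was the member furthest below WT in Triple_KO. It was at 19.7, 16.9, 26.5 and 22.4 FPM in WT and at 9.81, 8.30, 7.02 and 6.26 FPM in Triple_KO, with no overlap. The difference of -1.34 ± 0.23 (limma, adjusted p = 2.76e-07) ranked 44 from the lowest among 8697 genes. In Ythdf2_KO the values were 7.22, 9.58, 11.4 and 16.2 FPM, again all below WT, with a difference of -0.92 ± 0.23 (adjusted p = 0.00195). That call did not hold without WT replicate B (-0.72, adjusted p = 0.0936), without Ythdf2_KO replicate A (-0.60, adjusted p = 0.255) or with no filter on low genes (adjusted p = 0.0724). Dusp6 in Ythdf1_KO (21.9 to 26.5 FPM) and Ythdf3_KO (13.9 to 19.4 FPM) overlapped WT.

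Phlda1, a pleckstrin-homology-domain gene induced by growth factors, followed another order. Its WT libraries were at 31.5, 31.3, 24.7 and 25.2 FPM. Those of Ythdf2_KO were at 13.5, 7.78, 13.1 and 9.73 and those of Ythdf3_KO at 15.1, 14.4, 11.6 and 14.8, far below WT in every library. Triple_KO, at 28.8, 24.4, 21.1 and 26.0 FPM, overlapped WT. The differences were -1.30 ± 0.20 in Ythdf2_KO (limma, adjusted p = 5.66e-08), -0.96 ± 0.20 in Ythdf3_KO (adjusted p = 0.00027) and -0.16 ± 0.20 in Triple_KO (adjusted p = 0.628, 95% interval -0.56 to 0.23). In Ythdf1_KO all 4 libraries, at 21.8 to 24.2 FPM, were below the lowest WT library, but the difference of -0.28 ± 0.20 did not pass (adjusted p = 0.579).

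The summed level of 12 fibroblast markers, 12 of 12 listed, was likewise lower in Ythdf2_KO and Ythdf3_KO than in the other genotypes. It had medians of 328 FPM in WT (291 to 335), 219 in Ythdf2_KO (195 to 229) and 229 in Ythdf3_KO (226 to 237), against 348 in Ythdf1_KO (319 to 364) and 417 in Triple_KO (391 to 445). Of the defining markers, Lum was at 0 at 0 h in all 5 genotypes, and the means of Dcn were 0 to 0.54 FPM and those of Col3a1 0.322 to 2.20. Col1a1 was at 16.2 FPM in WT, 28.6, 13.2 and 17.3 in the knockouts of Ythdf1, Ythdf2 and Ythdf3 and 38.4 in Triple_KO, so that it was not lower in Ythdf3_KO. In the same order Col1a2 was at 7.58, 5.87, 6.34, 6.82 and 15.1 FPM, and Acta2 at 73.3, 91.7, 62.3, 64.1 and 130.7. S100a6 alone, at 183 FPM in WT and 105 in Ythdf2_KO, made up most of the WT sum. The part of these cells or genes in the Phlda1 result was not tested. Trophoblast markers (8 of 8 listed) had medians of 133 FPM in WT, 192, 191 and 87.4 in the knockouts of Ythdf1, Ythdf2 and Ythdf3, and 313 in Triple_KO, with Elf5 at 0 in WT and Triple_KO. The keratin genes Krt8 and Krt18 made up most of these sums, with means of 75.4 and 34.4 FPM in WT and 144.5 and 101.2 in Triple_KO. Eomes was at 3.78 FPM in WT and 3.695 in Triple_KO, and Hand1 at 0.449 and 0.817. Tfap2c was at 7.22 and 40.4 FPM, Gata3 at 6.93 and 16.0 and Cdx2 at 1.02 and 4.26. Pluripotency markers (10 of 10) were at 2771 to 2931 FPM in WT and 2332 to 2452 in Triple_KO. The part of these in the lower Etv5, Spry2 and Dusp6 of Triple_KO was not tested.

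Ier3, an immediate early gene that modulates ERK and survival signalling, was at 14.2, 20.3, 14.1 and 11.9 FPM in WT. It was at 16.2 to 23.9 FPM in Ythdf2_KO and 17.2 to 21.7 in Triple_KO, where 3 of the 4 WT libraries lay below every knockout library. The differences, 0.36 ± 0.21 and 0.37 ± 0.21, did not pass (limma, adjusted p = 0.349 and 0.226). Ythdf1_KO and Ythdf3_KO differed by -0.0036 and 0.03.

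**Figure D2:**
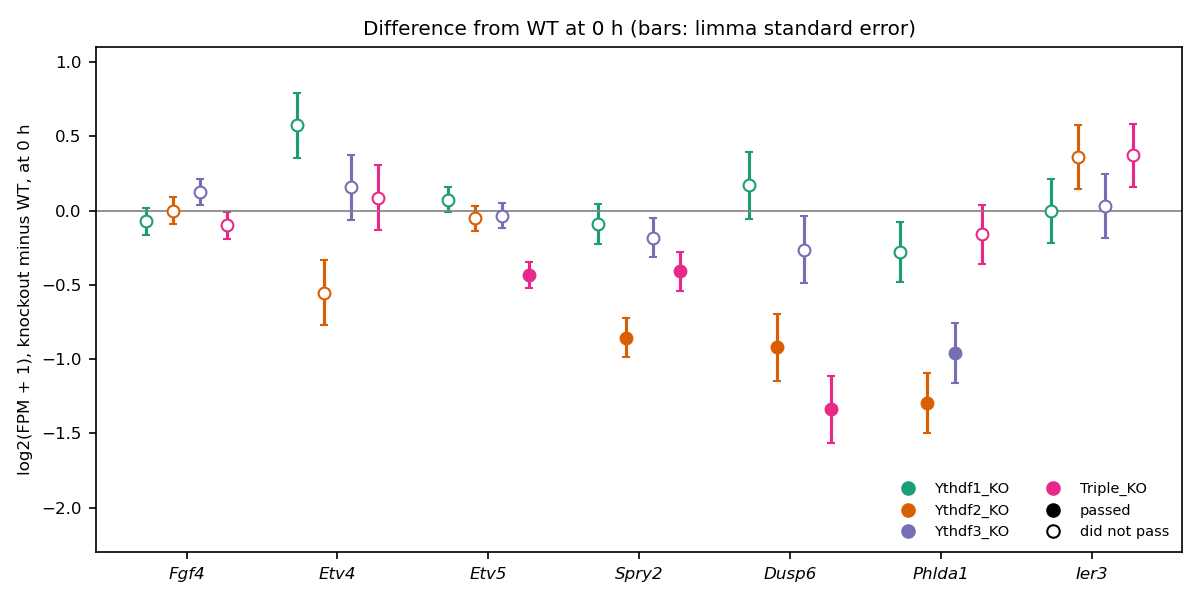
Difference of each tested member from WT at 0 h (vertical axis, log2 of FPM + 1, knockout minus WT), with limma standard errors as bars (n = 2 replicates per genotype). Filled points passed at an adjusted p under 0.05: Etv5 in Triple_KO, Spry2 and Dusp6 in Ythdf2_KO and Triple_KO, and Phlda1 in Ythdf2_KO and Ythdf3_KO.

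The remaining 3 inhibitors were too low to be tested in the same fit, and their reads were summed. Spry4, a second Sprouty gene, had 6, 3, 8 and 3 reads in the WT libraries at 0 h and exactly 1 in each of the 4 Ythdf2_KO libraries. Its pooled level was 3.37 FPM in WT (95% exact Poisson interval 2.06 to 5.21) and 0.499 in Ythdf2_KO (0.136 to 1.28), a ratio of 0.148 with an interval of 0.0368 to 0.442. The ratios were 1.28 (0.700 to 2.39) in Ythdf1_KO, 0.597 (0.284 to 1.23) in Ythdf3_KO and 0.443 (0.192 to 0.970) in Triple_KO. These intervals cover counting error only. In the limma fit of 17566 genes with no filter, the Spry4 difference was -1.46 ± 0.37 in Ythdf2_KO (adjusted p = 0.0642) and -0.80 ± 0.37 in Triple_KO (adjusted p = 0.224). Spry4 therefore lay in the same direction as Spry2, without passing the test.

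Spred1, a membrane-bound inhibitor of the pathway related to the Sprouty genes, was nearly level. It had 24 reads in WT and 25 to 30 in each knockout, or 4.04 FPM in WT (2.59 to 6.02) and 3.39 in Triple_KO (2.20 to 5.01). Dusp4, which encodes a nuclear ERK phosphatase, had 6 reads in WT, 5 to 7 in Ythdf1_KO, Ythdf3_KO and Triple_KO, and 1 in Ythdf2_KO. A difference in Dusp4 was not detectable at this depth: its pooled level was 1.01 FPM (0.371 to 2.20) in WT and 0.125 (0.00316 to 0.695) in Ythdf2_KO.

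Triple_KO was then set against each single knockout, a comparison added after the values at 0 h were seen. Against Ythdf2_KO, Phlda1 was higher by 1.14 ± 0.20 (limma, adjusted p = 1.38e-06), Spry2 by 0.45 ± 0.13 (adjusted p = 0.00953) and Etv4 by 0.64 ± 0.22 (adjusted p = 0.0292), while Etv5 was lower (-0.38 ± 0.09, adjusted p = 0.000258). Of all tested genes, 16.4% passed, beside 4 of the 7 members. The Spry2 and Etv4 calls did not hold under the TMM and median scalings (adjusted p = 0.0683 and 0.0832 for Spry2, 0.0825 and 0.0951 for Etv4). Without Ythdf2_KO replicate A or B the adjusted p was 0.065 and 0.0567 for Spry2 and 0.144 and 0.119 for Etv4, and it was 0.107 for Spry2 without Triple_KO replicate A and 0.328 for Etv4 without Triple_KO replicate B (limma). For Dusp6 the 2 genotypes were not shown to differ: -0.42 ± 0.23, with an interval of -0.86 to 0.03 (adjusted p = 0.214).

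Against Ythdf3_KO, where 19.6% of the tested genes passed, Phlda1 was higher in Triple_KO by 0.80 ± 0.20 (limma, adjusted p = 0.00107), and Etv5 (-0.40 ± 0.09, adjusted p = 8.54e-05) and Dusp6 (-1.07 ± 0.23, adjusted p = 6.01e-05) were lower. The Fgf4 difference there, -0.22 ± 0.09, did not pass (limma, adjusted p = 0.059). It did under TMM (-0.31, limma adjusted p = 0.00373) and median scaling (-0.35, adjusted p = 0.000931). Against Ythdf1_KO, where 14.9% passed, Etv5 (-0.51 ± 0.09, adjusted p = 4.68e-07) and Dusp6 (-1.51 ± 0.23, adjusted p = 9.28e-09) were lower, and Dusp6 ranked 5 from the lowest of 8697 genes. With the spread estimated from all 30 replicate means, only Etv5 against Ythdf1_KO still passed among these 9 calls. Etv5 then had adjusted p = 0.0933 against Ythdf2_KO and 0.0525 against Ythdf3_KO (limma), Phlda1 0.0825 and 0.286, and Dusp6 0.0742 against Ythdf1_KO and 0.254 against Ythdf3_KO. The comparisons share the Triple_KO libraries.

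The rest of the pathway was described from 4 lists. At an unadjusted p under 0.05, 14.0%, 20.1% and 15.4% of all genes tested at 0 h passed in the knockouts of Ythdf1, Ythdf2 and Ythdf3, as a background for the unadjusted counts given here. By the adjusted p, the shares higher and lower were 3.98% and 4.22% in Ythdf2_KO, 2.47% and 1.99% in Ythdf3_KO and 14.3% and 7.65% in Triple_KO. Of 22 ligand, receptor and co-receptor genes, 6 could be tested: none passed in Ythdf1_KO (3 at an unadjusted p under 0.05, and 0 by edgeR), 1 in Ythdf2_KO, 1 in Ythdf3_KO and 4, all higher, in Triple_KO. The 3 largest there were heparan sulfate co-receptors, Gpc3 (1.21 ± 0.31), Sdc1 (0.82 ± 0.26) and Sdc4 (0.57 ± 0.11; limma, adjusted p = 4.63e-06). Sdc4 was lower in Ythdf2_KO (-0.40 ± 0.11, adjusted p = 0.00508), and Gpc3 was higher in Ythdf3_KO (1.07 ± 0.31, adjusted p = 0.0219). The median log2 difference of the 6 in Triple_KO was 0.51, beside 0.07 for all tested genes.

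Of 25 adaptors and kinases, 20 were tested. In the single knockouts none passed by limma or edgeR (0, 3 and 0 at an unadjusted p under 0.05 in the knockouts of Ythdf1, Ythdf2 and Ythdf3). In Triple_KO 3 were higher and 2 lower, near the shares of 14.3% and 7.65% of all tested genes. Those that passed included Frs2, the FGF receptor docking protein (0.92 ± 0.28), and Hras (0.46 ± 0.10, limma adjusted p = 0.000141). Their median was -0.03.

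Of 23 other negative regulators, 10 were tested, and none passed in the single knockouts by limma or edgeR (3, 2 and 2 at an unadjusted p under 0.05). In Triple_KO 3 phosphatase genes were higher, Dusp14 (1.33 ± 0.22, limma adjusted p = 2.63e-07), Dusp16 (0.75 ± 0.22) and Dusp9 (0.68 ± 0.14), with a list median of 0.56. The phosphatase genes of the pathway thus did not share a direction in Triple_KO, where Dusp6 was lower.

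Of 33 other ERK targets and ETS factors, 21 were tested. None passed in Ythdf1_KO (6 at an unadjusted p under 0.05, and 0 by edgeR), 2 were lower in Ythdf2_KO, 2 in Ythdf3_KO, and in Triple_KO 1 was higher and 4 lower. Hbegf, a growth factor of the EGF family, was lower in Ythdf2_KO (-0.95 ± 0.24, limma adjusted p = 0.00242) and in Triple_KO (-1.29 ± 0.24, adjusted p = 3.01e-06). The immediate early gene Ier2 was also lower in both (-0.41 ± 0.10, adjusted p = 0.00197, and -0.90 ± 0.10, adjusted p = 4.35e-15). Mcl1, which encodes a survival protein, was lower in Triple_KO (-0.55 ± 0.10), and Jun (-1.12 ± 0.35, adjusted p = 0.036) and Epha4 (-0.67 ± 0.21) were lower in Ythdf3_KO. The list median was -0.22 in Ythdf2_KO, beside -0.02 for all tested genes, and -0.05 in Triple_KO.

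Over the 10 replicate means of 0 h, 8585 genes were compared by Pearson correlation with the mean of the 7 scaled tested members, which did not themselves share 1 profile. The highest were L1td1 (r = 0.951), Pus10 (0.948), Prkar1a (0.922), Rapgef2 (0.919) and Midn (0.918). L1td1 had means of 309.7 FPM in WT, 315.5, 285.1 and 308.7 in the knockouts of Ythdf1, Ythdf2 and Ythdf3, and 287.5 in Triple_KO. Pus10 had means of 28.6 FPM in WT, 21.4 in both Ythdf2_KO and Triple_KO, 27.3 in Ythdf1_KO and 26.1 in Ythdf3_KO. Midn was likewise lower in Ythdf2_KO (49.5 FPM) and Triple_KO (55.8) than in WT (73.5). The points share their libraries, and the 5 were the highest of many, so that the correlations are a description.

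After transcription was blocked, most members had fallen by 8 h in every genotype. In WT 6 of the 7 tested members were lower at 8 h than at 0 h, beside 55.2% of the 9078 genes in this fit. Their median log2 change was -2.47, against -0.81 for all genes. The same 6 fell in Ythdf1_KO and in Ythdf3_KO, beside 54.5% and 59.6% of all genes. In Ythdf2_KO 5 fell (62.6% of all genes) and in Triple_KO 5 fell (25.8%). Values are relative to the library total, with no spike-in named in the labels, so that a gene more stable than the average can rise. Under median scaling Etv5 did not pass in any knockout (-0.17 to -0.30), Phlda1 did not pass in WT (-0.88) or Ythdf3_KO (-0.54), and neither Ier3 in Ythdf1_KO (-0.89) nor Dusp6 in Ythdf2_KO (-0.79) did. Under TMM scaling Phlda1 in Ythdf3_KO (-0.89) and Dusp6 in Ythdf2_KO (-1.09) did not pass, and Dusp6 there did not pass without Ythdf2_KO replicate A (-1.44).

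**Figure D3:**
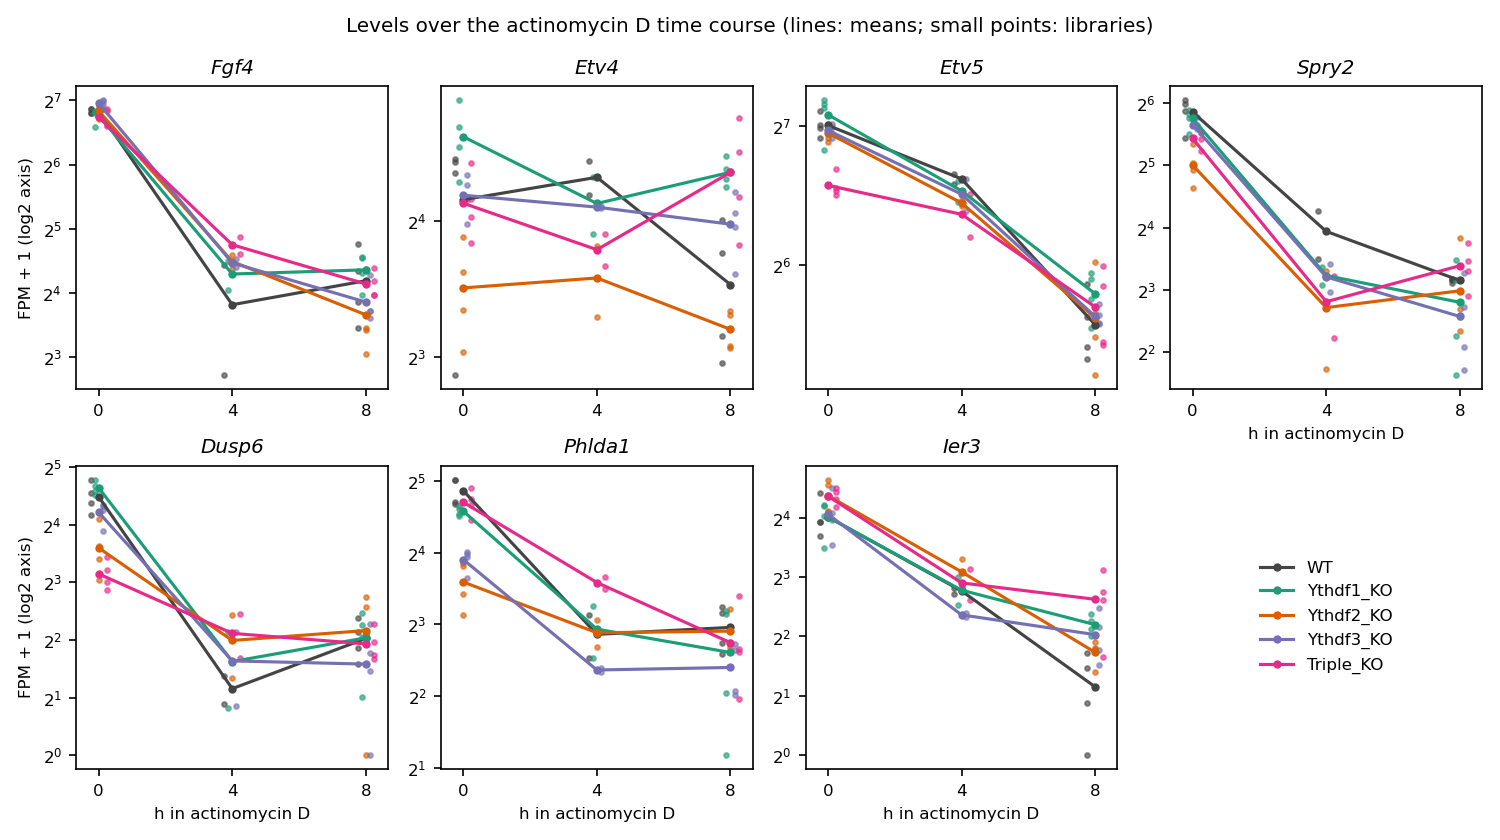
Level of the 7 tested members against hours in actinomycin D (vertical axis FPM + 1, log2 scale). Lines join the means of each genotype and small points are libraries (4 at 0 h, 2 at 4 h, 4 at 8 h). In WT 6 of the members passed as lower at 8 h than at 0 h. Etv4 kept 62.8% of its mean at 0 h in WT and 118% in Triple_KO.

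Ier3 fell furthest of the tested members in WT by 8 h. It was at 6.02 and 5.58 FPM at 4 h and at 2.28, 0, 0.844 and 1.76 FPM at 8 h, a mean of 8.08% of the level at 0 h. The change was -2.97 ± 0.40 (limma, adjusted p = 3.81e-09), and only 1.15% of the genes in the fit had a lower one. At 8 h the 4 WT libraries held 5 Ier3 reads in all. In Triple_KO, Ier3 was at 5.13, 2.16, 5.74 and 7.65 FPM at 8 h, or 26.4% of the level at 0 h, and 3 of these libraries lay above every WT library. The change there was -1.82 ± 0.40 (adjusted p = 0.00026), which did not pass without Triple_KO replicate A (-1.48, adjusted p = 0.0843).

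Fgf4, Spry2 and Dusp6 had lost most of their level by 4 h in WT. Fgf4 was at 20.7 and 5.58 FPM at 4 h, or 11.6% of its starting mean, and at 10.0 to 26.3 FPM at 8 h, or 15.3%. Spry2 was at 10.3 and 18.3 FPM at 4 h (25.2%) and at 7.59 to 8.03 FPM at 8 h (13.9%). Dusp6 was at 0.860 and 1.60 FPM at 4 h (5.74%) and at 2.01 to 4.22 FPM at 8 h (14.4%). All 8 h libraries of these genes lay below all those of 0 h. The changes to 8 h were -2.72 ± 0.25, -2.69 ± 0.36 and -2.47 ± 0.49, and all 3 passed (limma, adjusted p at most 2.04e-05).

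In the knockouts, Fgf4 at 8 h ranged from 10.3% of its 0 h level in Ythdf2_KO to 18.2% in Ythdf1_KO, with 15.8% in Triple_KO, and fell in every genotype. Spry2 was at 22.5% in Triple_KO (6.49 to 12.4 FPM) and 22.3% in Ythdf2_KO, where 1 library was at 13.2 FPM and the other 3 at 4.06 to 5.46. Dusp6 was at 35.9% in Triple_KO, with 2.20, 2.89, 3.83 and 2.35 FPM at 8 h, inside the WT range of that time. At 8 h Dusp6 overlapped WT in every knockout, and the 4 libraries of a genotype held 10 to 17 Dusp6 reads in all; levels at 8 h were not tested between genotypes. The Dusp6 change in Triple_KO, -1.22 ± 0.49, did not pass (limma, adjusted p = 0.0521), but did with the replicate letter as a block (adjusted p = 0.0444), by edgeR (adjusted p = 0.00197) and with the 4 h libraries left out (adjusted p = 0.0097).

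Phlda1 in WT was as low at 4 h as at 8 h. It was at 7.74 and 4.79 FPM at 4 h and at 5.71, 5.02, 8.44 and 7.92 FPM at 8 h, or 24.1% of the level at 0 h (-1.92 ± 0.38, limma adjusted p = 1.86e-05). In Ythdf2_KO, which started lower, it was at 5.75, 5.46, 8.28 and 6.50 FPM at 8 h, or 58.8%, and overlapped WT at that time. The change there was -0.67 ± 0.38 and did not pass (adjusted p = 0.115), although edgeR gave -0.80 with adjusted p = 0.0245. In Triple_KO the 4 h libraries, at 10.3 and 11.7 FPM, were above those of WT, and the 8 h mean was 22.8% of the start (-2.04 ± 0.38, adjusted p = 2.09e-05).

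The ETS factors had the smallest falls of the tested members in WT. Etv5 was at 99.8 and 94.9 FPM at 4 h in WT, or 76.3%, and at 57.1, 48.2, 38.8 and 41.4 FPM at 8 h, or 36.3%, with a change of -1.46 ± 0.13 (limma, adjusted p = 4.26e-15). Etv4 was at 17.2 and 20.7 FPM at 4 h and at 12.6, 15.0, 6.75 and 7.92 FPM at 8 h, or 62.8%. Its change of -0.56 ± 0.29 did not pass by limma with all libraries (adjusted p = 0.0981), whereas edgeR gave -0.73 with adjusted p = 0.0245. Without the WT library low in Etv4 at 0 h it was -0.95 with adjusted p = 0.00384 (limma). In Triple_KO Etv4 was at 13.2, 26.0, 21.7 and 17.1 FPM at 8 h, 118% of its start.

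**Figure D4:**
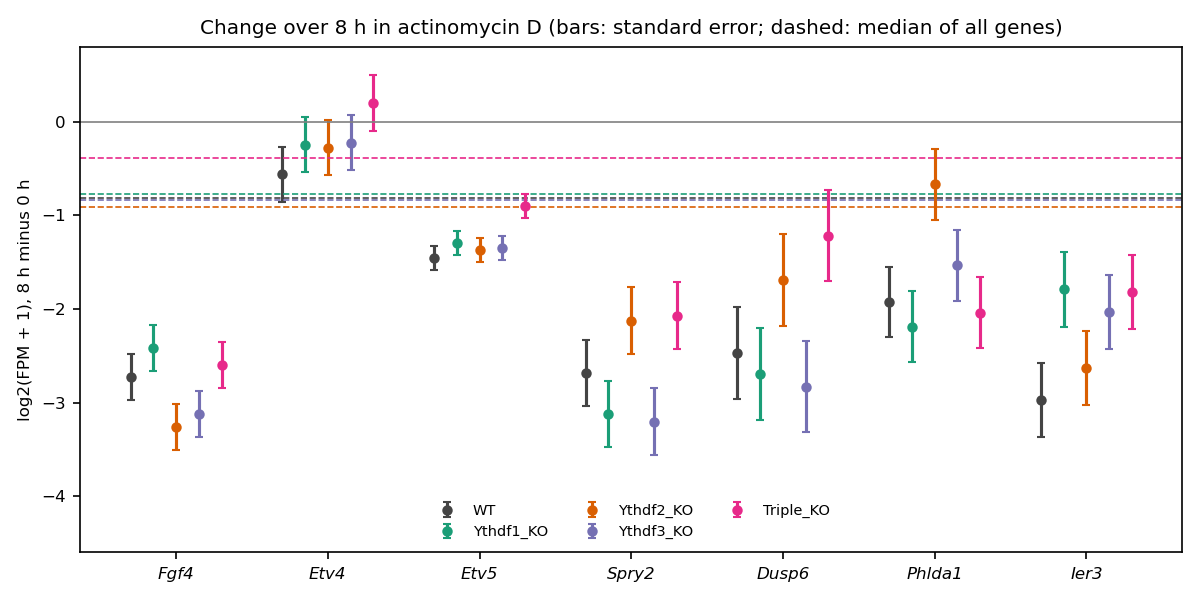
Change from 0 to 8 h in actinomycin D for each tested member and genotype (vertical axis, log2 of FPM + 1, 8 h minus 0 h), with limma standard errors as bars (n = 2 replicates). Dashed lines are the median of all 9078 tested genes in each genotype, from -0.91 in Ythdf2_KO to -0.39 in Triple_KO; Etv4 lies above these lines in all 5 genotypes.

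The changes were then compared between knockouts and WT as a genotype by time term. In Triple_KO the fall of Etv5 was smaller than in WT by 0.56 ± 0.18 (limma, adjusted p = 0.0481): it kept 53.9% of its level at 8 h, against 36.3% in WT. At 8 h itself the Triple_KO libraries, at 56.4, 41.9, 62.5 and 42.4 FPM, overlapped WT. Of all tested genes 7.22% had such a positive difference, beside 1 of the 7 members, and the median of all genes was 0.37. The Etv5 difference became 0.23 under TMM scaling and 0.03 under median scaling (adjusted p = 0.771 and 0.979) and did not pass without WT replicate B, without either Triple_KO replicate, without the WT library low in Etv4 or with no filter. Of the tested genes, 65.6% had a lower value. Listed genes took up 33.2% of the WT libraries at 8 h and 41.1% of those of Triple_KO, from 43.3% and 44.3% at 0 h. The part of this shift in the result was not tested.

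For Dusp6 and Ier3 in Triple_KO the differences were larger, 1.25 ± 0.69 and 1.15 ± 0.56, but did not pass (limma, adjusted p = 0.31 and 0.24). In the single knockouts no member passed. The largest were Phlda1 in Ythdf2_KO (1.25 ± 0.54, interval 0.19 to 2.32, limma adjusted p = 0.588) and Ier3 in Ythdf1_KO (1.18 ± 0.56, adjusted p = 0.949). At an unadjusted p under 0.05 the count was 1 member in Ythdf1_KO, 1 in Ythdf2_KO and 0 in Ythdf3_KO, beside 5.18%, 7.13% and 6.16% of all genes, and edgeR called none in any of the 3. By the adjusted p, 0.0441%, 0.176% and 0.330% of all genes passed. The standard errors of 0.18 to 0.69 set what could be seen for these members.

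Among the other pathway genes in WT, 3 of 6 ligands and receptors, 15 of 20 adaptors and kinases, 6 of 10 other negative regulators and 16 of 21 other targets fell by 8 h. Their median changes were -0.57, -0.96, -1.60 and -2.01, beside -0.81 for all genes, of which 55.2% fell. Among the largest were Ext1 (-1.92 ± 0.36), an enzyme of heparan sulfate synthesis, Dusp16 (-2.50 ± 0.41), Epha4 (-3.15 ± 0.40) and Mcl1 (-2.62 ± 0.20, limma adjusted p = 3.29e-18). In Triple_KO 2, 4, 6 and 13 of the same lists fell, beside 25.8% of all genes. The fall was smaller in Triple_KO than in WT for 4 adaptors and kinases, among them Hras (1.04 ± 0.20, adjusted p = 0.000271) and Grb2 (1.21 ± 0.40). It was smaller for 4 other targets too, among them Hbegf (2.14 ± 0.59), Mcl1 (1.39 ± 0.28, adjusted p = 0.000349) and Ier2 (1.18 ± 0.38). Of all tested genes, 7.22% had such a positive difference, and the median of all genes was 0.37. The number of genes with a positive call, 655 as deposited, was 108 under TMM and 65 under median scaling. Hbegf, Mcl1 and Ier2 were also lower than WT at 0 h in Triple_KO, so that their changes started from a lower level. No ligand, receptor or other negative regulator passed by limma (1 of each at an unadjusted p under 0.05, beside 19.6% of all genes, and 1 of each by edgeR).

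Of the low inhibitors, Spred1 passed as lower at 8 h in all 5 genotypes, Spry4 in 3 and Dusp4 in none, by limma with no filter. In that fit of 19455 genes, 5036 passed in either direction in WT. In the knockouts of Ythdf1, Ythdf2, Ythdf3 and all 3 genes, 4917, 5704, 5380 and 2234 did. A gene that starts near 0 cannot fall far on this scale, so that not passing does not show that a transcript persisted. Spry4 had 1 read over 4 libraries at 8 h in each of the 5 genotypes, against 20 in WT at 0 h, and Spred1 had 1 to 3, against 24 in WT at 0 h. In the limma fit with no filter the changes in WT were -1.78 ± 0.39 for Spry4 (adjusted p = 0.00135), -1.997 ± 0.48 for Spred1 (adjusted p = 0.00318) and -0.86 ± 0.46 for Dusp4 (adjusted p = 0.19). Spry4 did not pass in Ythdf2_KO (-0.37, adjusted p = 0.551) or Triple_KO (-1.05, adjusted p = 0.0894), where it had only 4 and 11 reads at 0 h. Dusp4 had 6 reads over the 4 WT libraries at 0 h and 0 at 8 h, where the exact Poisson interval reaches 0.880 FPM.

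The 10 members lie on 9 chromosomes of GRCm38.p6, with Dusp6 (99263231 to 99267489) and Phlda1 (111506286 to 111508649) both on chromosome 10. Fgf4 is on chromosome 7 (144861386 to 144865245), Etv4 on 11 (101769747 to 101785310), Etv5 on 16 (22381313 to 22439570), Spry2 on 14 (105891947 to 105896819), Spry4 on 18 (38586247 to 38601347), Spred1 on 2 (117121071 to 117182279), Dusp4 on 8 (34807610 to 34819894) and Ier3 on 17 (35821713 to 35822911).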

How the data were processed

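The deposited table gave FPM (the same unit as RPM) per RefSeq transcript. The submitters' processing notes name Bowtie2, CASAVA 1.8.2 and the build mm10. How multiply mapped reads, strand and the authors' filter were handled is not given. Low values were whole multiples of 1 read in every library (100% within 0.1 read), with totals of 796921 to 2341410. Of 22338 transcripts, 21729 were named through RefSeq and 120 through GENCODE M21. Identical rows of a gene were counted once and distinct rows summed, which left 19455 genes. Duplicate libraries were averaged as log2(FPM + 1), which understates the change of low genes, so that n = 2 per genotype and time. Genes with 5 FPM or more in 2 replicate means were fitted with limma 3.58 (R 4.3; trend, Benjamini-Hochberg at 0.05): 0 h on 10 replicate means, changes with time on all 30. The procedure was tested on simulated data. Alternatives were a pseudocount of 0.25, no filter, TMM and median scaling, a replicate block, edgeR 4.0 on recovered reads, other times in the fit, and leaving out replicates. Named were all members, up to 3 genes per pathway list and comparison (given for the comparisons with WT and the WT time course) with the largest change that passed (some are not reported here), and the 5 genes most alike. The members and lists were chosen with earlier results of these data known. Spred1 was summed from 2 rows, the other members from 1.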

Additional observations from a re-analysis of the deposited data

Results flagged for a closer look

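In 14 of 96 groups of 4 libraries, 1 library stood far from the other 3, where chance gives about 1 in 20. Of these, 9 were a single read against zeros. Etv4 in WT at 0 h was at 6.29 FPM (9 reads) in duplicate 2 of replicate B, against 19.4 to 20.97 in the other 3, and without this library limma called Etv4 in Ythdf2_KO against WT and at 8 h against 0 h in WT, which edgeR called with all libraries. Fgf4 was at 94.9 FPM in 1 Ythdf1_KO library at 0 h (others 110 to 113) and at 18.5 FPM in 1 Ythdf3_KO library at 8 h (others 11.2 to 12.2). Spry2 was at 13.2 FPM in 1 Ythdf2_KO library at 8 h (others 4.06 to 5.46). For Spry4 at 8 h, the single-read libraries were at 1.14 FPM in WT and 0.732 in Triple_KO, and at 1.13, 0.821 and 0.934 in the knockouts of Ythdf1, Ythdf2 and Ythdf3. Spred1 at 8 h was at 1.14 FPM in 1 WT library, 0.821 in 1 Ythdf2_KO library and 0 in 1 Ythdf1_KO library, where the others were at 1.01 to 1.13. Dusp4 was at 0.452 FPM in 1 Ythdf2_KO library at 0 h and 0.638 in 1 Triple_KO library at 8 h. The change of Etv5 over 8 h differed between Triple_KO and WT by 0.56 on the log2 scale, by a genotype by time term.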

How the results depend on the processing

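Counts of members that passed at 0 h against WT were unchanged under both scalings, the pseudocount of 0.25 and the replicate block. Fitted on all 30 replicate means, the count was 0 in place of 3 in Ythdf2_KO, 0 in place of 1 in Ythdf3_KO and 1 in place of 3 (Etv5) in Triple_KO. Leaving out replicates, where the lone replicate is assumed to vary like the others, gave 0 to 1 in Ythdf1_KO (Etv4, without WT replicate A). The 1 member with a different change in Triple_KO became 0 with no filter, with TMM or median scaling, without the WT library low in Etv4 (chosen after seeing the data), and in 3 replicate omissions (range 0 to 1). Under median scaling Etv4 rose from 0 to 8 h in Ythdf1_KO (0.75), Ythdf2_KO (0.82), Ythdf3_KO (0.85) and Triple_KO (0.76), and Etv5 did not pass in any knockout (-0.17 to -0.30); Phlda1 in WT did not pass either (-0.88). The median change of all genes in WT was -0.81 as deposited, -0.19 under TMM and 0.23 under median scaling, and the split of genes higher and lower moved from 157 and 5007 to 1402 and 2234, and 2629 and 1222. At 0 h it moved from 346 and 367 to 530 and 269 (TMM) in Ythdf2_KO and from 1241 and 665 to 964 and 847 in Triple_KO. For the change in Triple_KO against WT it moved from 655 and 2 to 108 and 44 under TMM, and to 65 and 229 under median scaling, where most of the calls were lower. The median difference of all genes there was 0.37 as deposited, 0.08 under TMM and -0.10 under median scaling. The cause of these moves was not tested. No pairing of samples by the letters A and B was seen (correlations of A minus B of -0.0221 to 0.0237 between genotypes). This does not exclude a pairing, since counting error can hide one at this depth. With the replicate block the counts were 0, 3, 1 and 3 at 0 h, 6, 6, 5, 6 and 6 from 0 to 8 h, and 0, 0, 0 and 1 for differences in change, and Dusp6 in Triple_KO was the 1 added call. Depth limits Spry4, Spred1 and Dusp4, and all 8 h values below about 5 FPM.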
